A study of Mus musculus with 2 samples.

Results

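Genomic imprinting restricts expression of a gene to the copy inherited from one parent, and most imprinted genes in mammals act on growth, placenta or behaviour. The 10 imprinted genes described here lie outside the Kcnq1-Cdkn1c and Dlk1-Dio3 regions: H19, Igf2, Igf2r, Grb10, Plagl1, Peg3, Mest, Snrpn, Ndn and Mkrn3. They were taken by name from 53843 annotated genes, of which 21755 are protein-coding, and their position was read in GENCODE mouse release 21 on build GRCm38 (mm10). 9 of the 10 are protein-coding and H19 is a long non-coding RNA gene. The mark measured was trimethylation of lysine 27 of histone H3 (H3K27me3), by chromatin immunoprecipitation and sequencing in 2 biological replicates of E14TG2a.4, a line of male mouse embryonic stem cells (strain 129/Ola, embryonic day 3.5). Both replicates are of that line and of the same donor in the labels, no treatment is named, and the series has a single group. The values thus describe 1 line and not the spread between embryos.

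H3K27me3 is laid down by Polycomb repressive complex 2, which settles mostly on CpG-rich DNA that is free of DNA methylation. At most imprinted loci the copies are told apart by DNA methylation set in the egg or the sperm at a control region, often the promoter of an imprinted gene, and the zinc finger protein ZFP57 binds the methylated hexamer TGCCGC there to keep that methylation after fertilisation. The methylated copy is thus a poor substrate for Polycomb, while the other copy can carry the active mark or H3K27me3. The lists do not separate the parental copies, so each value below sums over both.

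The peak list of replicate 1 held 63651 peaks covering 53.6 Mb and that of replicate 2 held 98582 peaks covering 58.4 Mb. Read depth is unknown for both lists, so a place without a peak is a place where none was called. Each peak has a signal value in the authors' own unit, with a median of 4.66 in replicate 1 and 4.32 in replicate 2. The pluripotency genes Pou5f1, Nanog and Sox2 had no peak within 1 kb of their start in either replicate, and neither did the housekeeping genes Actb, Gapdh, Tbp and Hprt. All 4 developmental Polycomb targets looked up, Hoxd13, Pax6, Gata6 and T, had one in both.

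Of the 10 imprinted genes, 5 had a peak of both replicates within 1 kb of the annotated gene start: Igf2, Igf2r, Grb10, Plagl1 and Ndn. The same call was made for 26.1% of protein-coding genes and 11.9% of lincRNA genes. The same 5 genes were called when every annotated transcript start was searched within 1 kb (29.4% of protein-coding genes), within 5 kb (36.8%) and over the gene body (33.8%). With 10 genes, chosen by name, whether that share differs from the background was not tested. Peg3, Mest and Snrpn had no peak within 5 kb of the gene start in either replicate, and H19 and Mkrn3 had peaks there in replicate 2 only. With the relaxed lists, the replicated lists or the list of both libraries together, 8 of the 10 were called within 5 kb of a transcript start, H19, Mest and Mkrn3 being added, beside 46.1% to 49.0% of protein-coding genes. The call within 1 kb of the gene start (26.1% of protein-coding genes) was also split by the copy known to be expressed. Of the 3 genes expressed from the maternal copy (H19, Igf2r and Grb10), 2 were called. Of the 7 expressed from the paternal copy 3 were, or 2 where a base in common was needed. The expressed copy was not measured here.

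**Figure D1:**
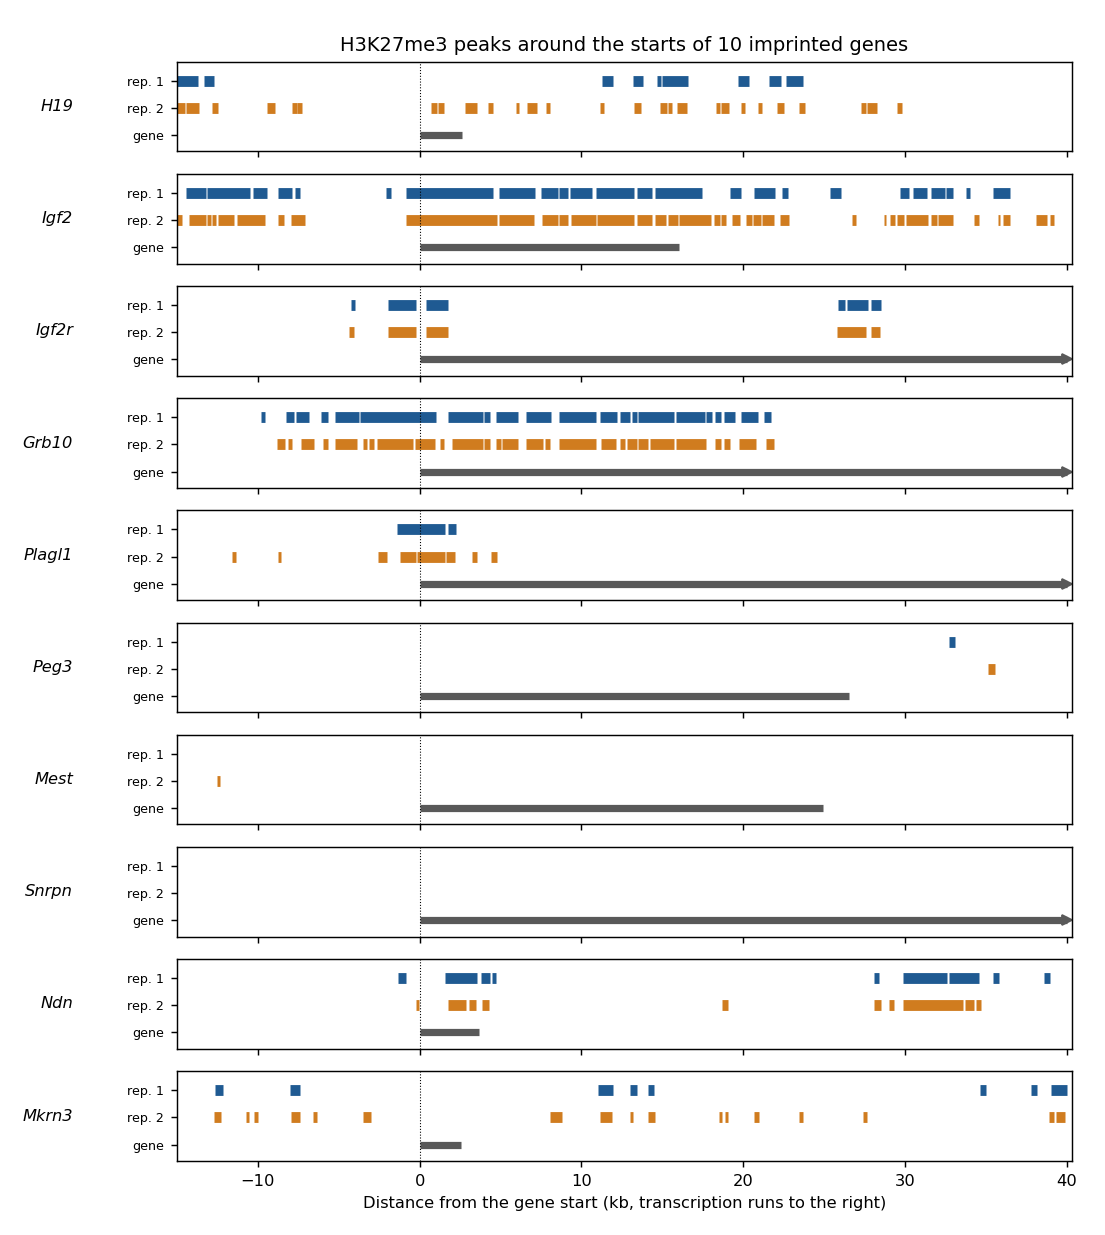
H3K27me3 peaks of replicate 1 (blue) and replicate 2 (orange) from 15 kb before to 40 kb after the start of each gene, with the gene body in grey and an arrow where it runs on past 40 kb. Igf2 and Grb10 were covered over long stretches in both replicates, Igf2r and Plagl1 near the start, Ndn mostly past the annotated start, and no peak was drawn in the bodies of Peg3, Mest and Mkrn3 or in the plotted part of Snrpn.

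Igf2 encodes insulin-like growth factor 2, the fetal growth factor made from the paternal copy, and it was the member with the largest share of its body covered. The gene (chr7:142650766-142666816, minus strand, 16.1 kb) had 14527 bp under peaks in replicate 1 and 14628 bp in replicate 2. Of its body, 14026 bp (87.4%) lay under peaks of both, against a median of 0 over protein-coding genes, and this placed it at percentile 98.5 of them. Exons and introns were covered alike, with 81.5% of exonic and 90.7% of intronic bases under peaks of both replicates. Around the gene start replicate 1 covered 1845 bp of 2001 and replicate 2 covered 1861 bp. The peak over that start had a signal of 15.6 in replicate 1, with a −log10 q of 48.2, and 10.5 in replicate 2, with a −log10 q of 29.1. These are percentiles 99.7 and 97.2 of the 2 lists. The strongest peak of Igf2 in replicate 2, with 13.6, lay further inside, between 8.62 and 9.20 kb from the start.

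The replicates gave nearly the same intervals over Igf2. Of its 9 peaks in replicate 1, 8 overlapped a peak of replicate 2, and of 12 peaks in replicate 2, 10 overlapped one of replicate 1. Bases covered in both replicates, joined where less than 3 kb lay between them, formed a stretch of 23.6 kb (chr7:142644025-142667660) that was 77.7% covered and ranked 266 from the longest of 16987 such stretches. It ran from -0.844 to 22.8 kb of the gene start (negative positions lie upstream). The stretch also holds the starts of Igf2os, the antisense transcript, and of the microRNA gene Mir483, which lie in the Igf2 body. Because the assay reads no strand, its peaks cannot be assigned to one of these genes.

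Igf2 is transcribed from several promoters, and its 9 transcripts in GENCODE start in 6 groups (starts within 1 kb of each other). All 6 groups were called in both replicates, with 1505 to 1845 bp of 2001 covered in both. Around the first start of each group only the third, 7.33 kb inside the gene, had a CpG ratio above the median: 103 CpG in the 1001 bp around it and a CpG ratio (observed over expected) of 0.822, where the median over protein-coding gene starts was 0.558. The start itself fell in a gap between peaks, with the nearest covered base at 0.185 kb in replicate 1 and 0.246 kb in replicate 2. The 200 bases before that start are shown because they are CpG-dense and nearly free of peaks (16 bp covered in replicate 1 and 0 in replicate 2) inside the covered gene. In this and the later sequences CpG pairs are in capitals, the strand is that of the gene and the source is the RefSeq copy of GRCm38.
Igf2 start group 3, chr7:142659490-142659689, minus strand: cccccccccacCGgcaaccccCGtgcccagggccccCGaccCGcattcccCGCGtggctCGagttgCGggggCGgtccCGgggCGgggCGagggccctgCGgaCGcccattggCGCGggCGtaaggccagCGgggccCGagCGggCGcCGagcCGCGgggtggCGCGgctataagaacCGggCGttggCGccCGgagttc
They hold 30 CpG pairs, with a CpG ratio of 0.938. RefSeq places further starts 5.54 and 8.01 kb inside the gene, with ratios of 0.709 and 0.756, and these had 1656 and 1410 bp covered in both replicates.

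H19, expressed from the maternal copy and sharing enhancers with Igf2, differed between the replicates. The gene (chr7:142575529-142578143, minus strand, 2.62 kb) had no peak in replicate 1, where the nearest one lay 11.3 kb downstream of the start. In replicate 2, 278 bp of the 2001 bp around the start and 726 bp of the body were covered. Replicate 2 had 5 peaks within 5 kb of its transcript starts, with signals between 2.89 and 4.63, that is between percentile 2.25 and 59.6 of that list. A call in replicate 2 alone was made at 5.54% of lincRNA gene starts. In the first processing run's relaxed lists, which keep weaker peaks, H19 had 3 peaks in replicate 1 and 2 in replicate 2 within 1 kb of its starts, and they shared 150 bp. H19 was also called within 1 kb of its gene start with either replicated list and with the list of both libraries together. These lists and the relaxed ones called 33.2% to 34.2% of protein-coding genes. The share of lincRNA genes, the type of H19, was not computed for them. Within 5 kb of the H19 start the replicated and joint lists covered 1876 to 1980 bp, and the relaxed lists had 929 bp in common.

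The 5 kb upstream of H19 hold the control region known to be methylated on the paternal copy and bound by the insulator protein CTCF on the maternal copy. No base of these 5 kb was covered in either replicate. They hold 6 matches on either strand to GGNGGCAG, a core of the CTCF motif, where the mean over the 5 kb upstream of protein-coding genes was 2.01. Such a match is a string of letters and not a measured site. Between the H19 start and the end of Igf2 lie 72.6 kb, with 26 peaks in replicate 1 and 44 in replicate 2. Of these bases 20201 were covered in replicate 1, 22801 in replicate 2 and 13147 (18.1%) in both. Mrpl23, the nearest protein-coding gene on the other side of H19, was called at its start, with 1184 bp covered in replicate 1 and 1215 bp in replicate 2.

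Igf2r encodes the receptor that binds IGF2 and carries it to lysosomes, so that ligand and receptor have opposite effects on growth, and it is expressed from the maternal copy in most tissues. It (chr17:12682406-12769664, minus strand, 87.3 kb) was covered at 2 places and hardly elsewhere. Around its start 1394 bp of 2001 were covered in replicate 1 and 1397 bp in replicate 2, of which 1390 bp were shared. The highest signal there was 9.49 in replicate 1 and 11.0 in replicate 2, at percentiles 94.0 and 97.8. All 6 peaks of replicate 1 and all 5 of replicate 2 that touch the gene or lie within 5 kb of its starts overlapped a peak of the other replicate. The covered stretch at the start was 5.95 kb long (chr17:12767933-12773885).

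That start is itself a CpG island, with 107 CpG in 1001 bp and a ratio of 0.903. The peaks stood on both flanks of it and not on the start, since the nearest covered base lay 0.219 kb away in replicate 1 and 0.212 kb in replicate 2. Replicate 1 was uncovered up to 0.389 kb inside the gene and replicate 2 up to 0.393 kb. The 200 bases before the start are shown because they fall in this gap, with 0 bp covered in either replicate, 27 CpG pairs and a ratio of 1.04.
Igf2r start group 1, chr17:12769665-12769864, minus strand: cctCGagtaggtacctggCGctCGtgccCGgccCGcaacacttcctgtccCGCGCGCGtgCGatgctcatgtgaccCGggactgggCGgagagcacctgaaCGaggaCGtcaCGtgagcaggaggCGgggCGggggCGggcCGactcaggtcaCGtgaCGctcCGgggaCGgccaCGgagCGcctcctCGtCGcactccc

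The second covered place of Igf2r lay 25.9 to 28.5 kb inside the gene (chr17:12741212-12743814, 2.60 kb, 85.4% covered) and holds the start of Airn. Airn is a long non-coding RNA transcribed from the paternal copy across the Igf2r start in the opposite direction, and its promoter lies in the control region methylated on the maternal copy. Around the Airn start 954 bp were covered in replicate 1, 805 bp in replicate 2 and 800 bp in both, with signals of 7.67 and 6.65. This covered place and that at the start are intronic or upstream: 0% of the exonic bases of Igf2r were covered in both replicates, against 4.57% of the intronic bases. Of the neighbours that Airn is known to silence in placenta, Slc22a3, a cation transporter, was called at its start with 1858 bp in replicate 1 and 1946 bp in replicate 2. Slc22a2, another transporter of the cluster, had no peak within 1 kb of its start in either replicate.

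Grb10 encodes an adaptor protein that restrains growth factor signalling, and it is expressed from the maternal copy in most tissues and from the paternal copy in neurons. It (chr11:11930508-12038683, minus strand, 108 kb) had more peaks than any other of the 10 genes, 17 in replicate 1 and 24 in replicate 2. Of these 16 and 22 overlapped a peak of the other replicate. The signals ran from 3.18 to 11.0 in replicate 1 and from 3.18 to 13.0 in replicate 2. Around the gene start 1992 bp were covered in replicate 1 and 1849 bp in replicate 2, and within 5 kb of it 8720 bp and 8083 bp of 10001. The 7799 bp common to both within 5 kb put Grb10 at percentile 98.3 of protein-coding genes.

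The bases of Grb10 covered in both replicates lay in its 5′ part only, and replicate 2 had a further peak of signal 3.18 between 61.7 and 62.0 kb inside the gene. The covered stretch was 29.8 kb long (chr11:12016967-12046795), from -8.11 to 21.7 kb of the gene start and 71.1% covered. It was the longest of any of the 10 genes and ranked 132 from the longest of 16987. No other gene starts inside it. The first 4 of 8 start groups lay in it, with 1849, 998, 1688 and 1302 bp of 2001 covered in both replicates. The other 4, between 68.0 and 100 kb inside the gene, had no peak in either. Over the whole body 17561 bp were covered in replicate 1, 16780 bp in replicate 2 and 15723 bp (14.5%) in both.

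Within the covered part of Grb10 the CpG-richest DNA was the least covered. The second start group, 1.28 kb inside, has 149 CpG in 1001 bp and a ratio of 1.06, higher than at 99.5% of protein-coding gene starts. It fell in a gap between peaks that ran in replicate 1 from 0.991 to 1.75 kb. In replicate 2 a small peak of signal 4.92 began 0.00700 kb from the start. Within 5 kb of the gene start the bases covered in both replicates held 1.87 CpG per 100 bp and the others 7.58. Over that window the other called genes did not share a contrast of this size. The covered and the other bases held 1.85 and 1.53 CpG per 100 bp at Igf2 and 1.93 and 2.08 at Igf2r. At Plagl1 they held 2.72 and 0.863, and at Ndn 3.19 and 0.638. The window leaves out the CpG-rich start group 3 of Igf2, 7.33 kb inside. The 200 bases before that start had 16 bp covered in replicate 1 and 0 in replicate 2. Those before the Igf2r start had 0 bp covered in either replicate. A CpG-dense start in a gap between peaks was thus not particular to Grb10. Start group 4 of Grb10, 12.0 kb inside, was different. It has 80 CpG in 1001 bp and a ratio of 0.852. Its start lay under a peak in both replicates, of signal 11.0 and 11.9. The 200 bases before start groups 2 and 4 of Grb10 are shown as a pair. Those of group 2 had 0 bp covered in either replicate and those of group 4 all 200 in both.
Grb10 start group 2, chr11:12037402-12037601, minus strand: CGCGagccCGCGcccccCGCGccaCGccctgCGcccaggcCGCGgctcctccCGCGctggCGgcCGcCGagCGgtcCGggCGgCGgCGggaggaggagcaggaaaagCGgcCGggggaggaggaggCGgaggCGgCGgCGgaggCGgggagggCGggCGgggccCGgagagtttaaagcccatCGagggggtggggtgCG
Grb10 start group 4, chr11:12026733-12026932, minus strand: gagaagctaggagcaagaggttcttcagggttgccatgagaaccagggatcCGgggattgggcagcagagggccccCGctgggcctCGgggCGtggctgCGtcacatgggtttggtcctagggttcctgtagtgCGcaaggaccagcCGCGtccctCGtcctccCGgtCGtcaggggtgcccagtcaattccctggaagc
They hold 32 and 11 CpG pairs, with ratios of 1.00 and 0.538. Ddc, the next gene downstream and imprinted in heart, had no peak within 1 kb of its outermost start but was called at another of its transcript starts. Cobl, the next upstream, had no peak within 1 kb of its gene start.

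**Figure D2:**
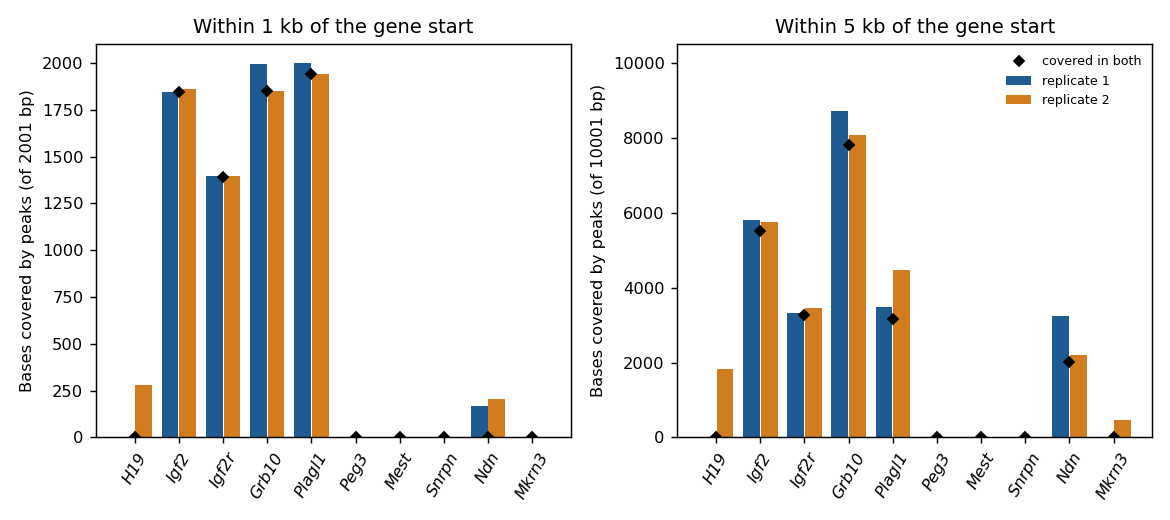
Bases covered by peaks within 1 kb (left, of 2001 bp) and within 5 kb (right, of 10001 bp) of the annotated gene start, with 1 bar for each replicate and a diamond for the bases covered in both. Igf2, Igf2r, Grb10 and Plagl1 have bars of like height in both replicates within 1 kb, H19 has one in replicate 2 only in both panels and Mkrn3 in the right panel, and the diamond of Ndn is at 0 within 1 kb and at 2008 bp within 5 kb.

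Plagl1 encodes a zinc finger transcription factor that slows the cell cycle and is expressed from the paternal copy. It (chr10:13060504-13131694, plus strand, 71.2 kb) was covered at its outermost start and not at the start that most of its transcripts use. Around the outermost start replicate 1 covered 2001 bp of 2001 and replicate 2 covered 1940 bp. The signals were 7.79 and 7.52, at percentiles 89.2 and 91.0. The covered stretch was 3.39 kb long (chr10:13059312-13062698) and 93.4% covered. A single transcript of the 25 begins there. The second start group, 30.2 kb inside, holds 22 transcripts and is known as the promoter methylated on the maternal copy. It had no peak in either replicate, the nearest one lying 27.9 kb away in replicate 1 and 25.4 kb in replicate 2.

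The 2 promoters of Plagl1 also differ in sequence. Around the covered start the CpG ratio was 0.409, with 25 CpG and no TGCCGC. Around the uncovered one it was 0.727, with 70 CpG and 4 TGCCGC on either strand, a count reached by 1.23% of protein-coding gene starts. The 200 bases before each are shown for that contrast.
Plagl1 start group 1, chr10:13060304-13060503, plus strand: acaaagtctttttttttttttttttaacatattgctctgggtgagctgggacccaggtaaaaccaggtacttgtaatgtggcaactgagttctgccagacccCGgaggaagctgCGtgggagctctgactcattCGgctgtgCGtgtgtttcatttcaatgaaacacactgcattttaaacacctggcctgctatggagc
Plagl1 start group 2, chr10:13090491-13090690, plus strand: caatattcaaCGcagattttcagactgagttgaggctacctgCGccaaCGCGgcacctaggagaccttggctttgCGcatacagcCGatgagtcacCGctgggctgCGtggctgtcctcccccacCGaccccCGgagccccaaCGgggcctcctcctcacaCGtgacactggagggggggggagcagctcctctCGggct
They hold 4 and 13 CpG pairs, and the first was covered over 200 bp in replicate 1 and 164 bp in replicate 2. RefSeq lists the inner start only, within the same group, so that with RefSeq starts Plagl1 was not called. 9 of the 10 genes have an entry there, 4 of them were called at a RefSeq start, and the same call was made for 26.2% of protein-coding genes with an entry.

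Peg3, Mest and Snrpn, each expressed from the paternal copy, had no peak over the start or the body in either replicate. In the relaxed lists Peg3 had a body peak of signal 2.96 in replicate 1 and of 2.89 in replicate 2, which shared 150 bp, and Mest had 222 bp in common within 5 kb of its gene start. Snrpn had a body peak there of signal 3.03 in replicate 1 and of 3.05 in replicate 2, which shared no base. The Peg3 body was also called with either replicated list and with the list of both libraries together, beside 41.3% to 42.3% of protein-coding genes. Peg3 encodes a zinc finger protein tied to maternal care and metabolism, and it (chr7:6703892-6730431, minus strand, 26.5 kb) lay in a peak-free interval of 216 kb in replicate 1 and 71.0 kb in replicate 2. The genome held 2362 longer ones in replicate 1 and 6250 in replicate 2. Usp29, which starts 0.147 kb away in the opposite direction, had no peak at its start. Zim1, whose start lies 7.44 kb beyond the other end of Peg3, had 76 bp covered in replicate 1 and none in replicate 2 within 1 kb of its start. Around the Peg3 start there were 48 CpG, a ratio of 0.610 and 3 TGCCGC.

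Mest encodes a membrane protein of the hydrolase fold family that promotes fetal growth. It (chr6:30723547-30748465, plus strand, 24.9 kb) lay in a peak-free interval of 263 kb in replicate 1 and 197 kb in replicate 2, part of which is unsequenced. The genome held 1940 longer ones in replicate 1 and 2483 in replicate 2. None of its 6 start groups had a peak within 1 kb. The fourth, 14.5 kb inside, is the known methylated promoter and held 10 TGCCGC, the most of the 34 start groups of the 10 genes, with a CpG ratio of 0.778. Copg2, which overlaps the 3′ end of Mest, had no peak at its start. Klf14, a single-exon gene of the same imprinted cluster that is expressed from the maternal copy, was called with 1441 bp in replicate 1 and 1239 bp in replicate 2 and signals of 13.4 and 12.4.

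Snrpn encodes a protein of the splicing machinery and marks the control region of the Prader-Willi cluster. The gene (chr7:59982495-60140219, minus strand, 158 kb) lay in the longest peak-free interval of the 10 genes: 3.57 Mb in replicate 1 (chr7:58659527-62232377) and 2.31 Mb in replicate 2 (chr7:58659547-60972044). Replicate 1 had 30 longer peak-free intervals in the genome and replicate 2 had 95. Within the interval lie 4 protein-coding gene starts in each replicate, those of Snrpn, of Snurf, which shares its downstream promoter, and of Ube3a, the maternally expressed ubiquitin ligase of neurons, among them. The nearest peak to the Snrpn start was 1481 kb away in replicate 1 and 832 kb away in replicate 2. Its downstream start, the known methylated promoter, held 5 TGCCGC, 30 CpG and a ratio of 0.570. The 200 bases before the methylated promoters of Mest and Snrpn are shown as starts rich in the hexamer and left without a peak by both replicates.
Mest start group 4, chr6:30737850-30738049, plus strand: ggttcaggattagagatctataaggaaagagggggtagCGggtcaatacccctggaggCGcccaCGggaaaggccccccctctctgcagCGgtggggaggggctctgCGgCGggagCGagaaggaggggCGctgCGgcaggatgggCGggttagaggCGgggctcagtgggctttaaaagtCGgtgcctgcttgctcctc
Snrpn start group 2, chr7:60005112-60005311, minus strand: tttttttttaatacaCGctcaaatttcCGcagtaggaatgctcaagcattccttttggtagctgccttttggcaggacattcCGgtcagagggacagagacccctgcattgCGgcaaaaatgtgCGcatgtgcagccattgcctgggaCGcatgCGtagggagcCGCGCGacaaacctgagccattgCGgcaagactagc
They hold 12 and 11 CpG pairs.

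Ndn and Mkrn3 belong to the same cluster as Snrpn, and both lie beyond the end of its peak-free interval in either replicate. The Ndn start is 2206 kb from that of Snrpn. Ndn encodes necdin, a protein of the MAGE family that acts in neurons, and is a single-exon gene (chr7:62346569-62350262, plus strand, 3.69 kb). At its GENCODE start 170 bp were covered in replicate 1 and 205 bp in replicate 2, by peaks that did not overlap, of signal 3.56 and 5.49. Calls of that kind, in both replicates with no base in common, made up 0.625% of protein-coding genes. The stronger peaks lay inside: 1996 bp of the body in replicate 1, 1562 bp in replicate 2 and 1562 bp (42.3%) in both, with signals up to 6.03 and 6.07. The covered stretch, 2.54 kb long (chr7:62348313-62350851), began 1.74 kb past the GENCODE start. RefSeq places the start 1.71 kb further downstream, at chr7:62348277. Around that start 1163 bp were covered in replicate 1, 965 bp in replicate 2 and 965 bp in both, with 43 CpG and a ratio of 0.668 where the GENCODE start has 6 CpG and 0.170.

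Mkrn3, a single-exon gene for a RING finger protein that delays puberty, had no peak within 1 kb of its start or in its body in either replicate. It (chr7:62417593-62420139, minus strand, 2.55 kb) had 453 bp within 5 kb covered in replicate 2, by a peak of signal 4.92, and none in replicate 1. The nearest peak lay 7.40 kb upstream of the start in replicate 1 and 3.03 kb upstream in replicate 2. Its neighbours on both sides were called. Magel2, a relative of Ndn, had 1557 bp covered in replicate 1 and 1585 bp in replicate 2, with signals of 12.3 and 11.6. Peg12 had 481 bp and 772 bp covered, with signals of 8.49 and 9.25. From Ndn to Peg12, over 118 kb, replicate 1 had 33 peaks and replicate 2 had 52, covering 28421 bp and 28040 bp, with 22879 bp (19.4%) in common.

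**Figure D3:**
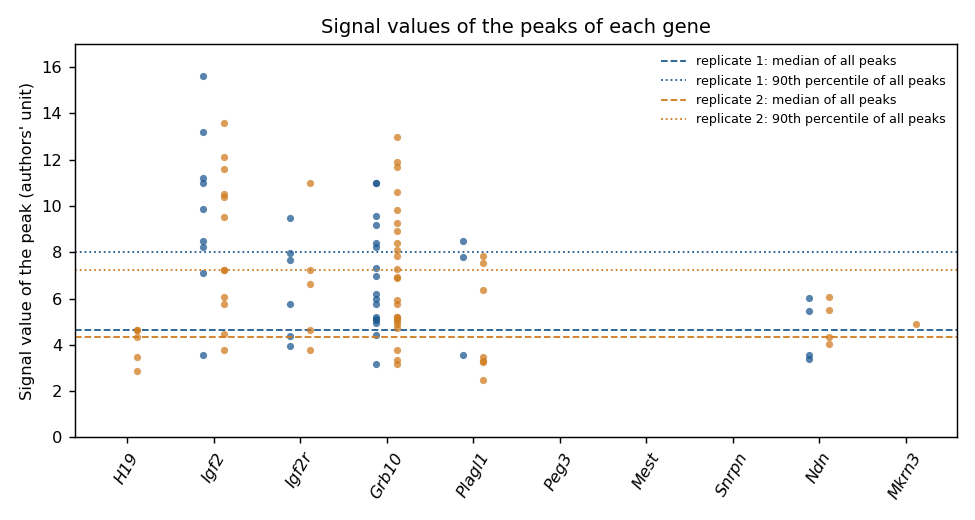
Signal value (authors' unit) of each peak that touches a gene body or lies within 5 kb of one of its transcript starts, for replicate 1 (blue) and replicate 2 (orange), with the median (dashed) and the 90th percentile (dotted) of all peaks of each list. Igf2, Igf2r, Grb10 and Plagl1 have peaks above the 90th percentile (8.03 and 7.23) in both replicates, those of H19, Ndn and Mkrn3 stay below it, and Peg3, Mest and Snrpn have none.

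Ranked by the strongest peak around the gene start, Igf2 was first in replicate 1 with 15.6, ahead of Grb10 with 9.55 and Igf2r with 9.49. In replicate 2 the order was Grb10 with 11.7, Igf2r with 11.0 and Igf2 with 10.5. The order of these 3 genes thus turned between replicates. Plagl1 followed in both, with 7.79 and 7.52, and Ndn came last of the called genes, with 3.56 and 5.49. By bases covered in both replicates within 5 kb the order was Grb10 (7799), Igf2 (5500), Igf2r (3259), Plagl1 (3162) and Ndn (2008). The order of Igf2r and Plagl1 depends on the measure, since Plagl1 had more bases covered in each replicate (3475 and 4480 bp, against 3323 and 3456 bp) and Igf2r more in common. Over the 10 genes the median was 1004 bp in common, over all protein-coding genes 0 and over those called within 1 kb 2937 bp.

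Taking every start group of the 10 genes, 34 in all, 12 had a base covered in both replicates within 1 kb and 1 more, that of Ndn, had peaks without a base in common. A common base was found at 17.1% of the start groups of protein-coding genes. Another 2 groups, of H19 and Plagl1, had a peak in replicate 2 only, and 19 had none. 9 groups had a CpG ratio at or above the median of protein-coding gene starts. Of these, 4 were covered, beside 33.5% of such groups of protein-coding genes: the third of Igf2, the first of Igf2r and the second and the fourth of Grb10. The 5 without a common base were the inner start of Plagl1, the first of Peg3, the fourth of Mest, the second of Snrpn and that of Mkrn3. Among the 25 groups of lower ratio 8 were covered, 5 of them in Igf2, beside 11.4% of such groups of protein-coding genes. At 3 of the 4 CpG-rich covered groups the start fell in a gap between peaks, and only at the fourth of Grb10 did peaks of both replicates lie over it.

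The hexamer read by ZFP57 was counted in the same 1001 bp, on both strands. It contains a CpG pair, so its count rises with CpG number. At least 3 copies were found at 3.88% of protein-coding gene starts, taking the outermost start of each gene. Counted over start groups, they were found at 1013 of 48338 of protein-coding genes and at 5 of the 34 here. Of all start groups of protein-coding genes with at least 3 copies, 38.8% had a base covered in both replicates, and of the 5 here 1 had. The other 4, in Plagl1, Peg3, Mest and Snrpn, had no peak in either replicate, and each is a known promoter methylated on the maternal copy. The fifth, the second group of Grb10, had 3 copies and 998 bp covered in both replicates within 1 kb. These bases lay on the flanks, and the 200 bases before the start had 0 bp covered in either replicate. The Airn start, also a promoter methylated on the maternal copy, had 3 copies and 800 bp covered in both, and the fourth group of Grb10, at the control region known to be methylated on the maternal copy, had 1 copy and 1302 bp covered in both. Starts with at least 3 copies or with known maternal methylation were found both with and without covered bases within 1 kb. Whether the hexamer or methylation bears on the calls was not tested. Of the 25 groups with 0 copies 9 were covered and 16 were not, beside 13.2% covered among such groups of protein-coding genes. DNA methylation was not measured in the files used here.

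**Figure D4:**
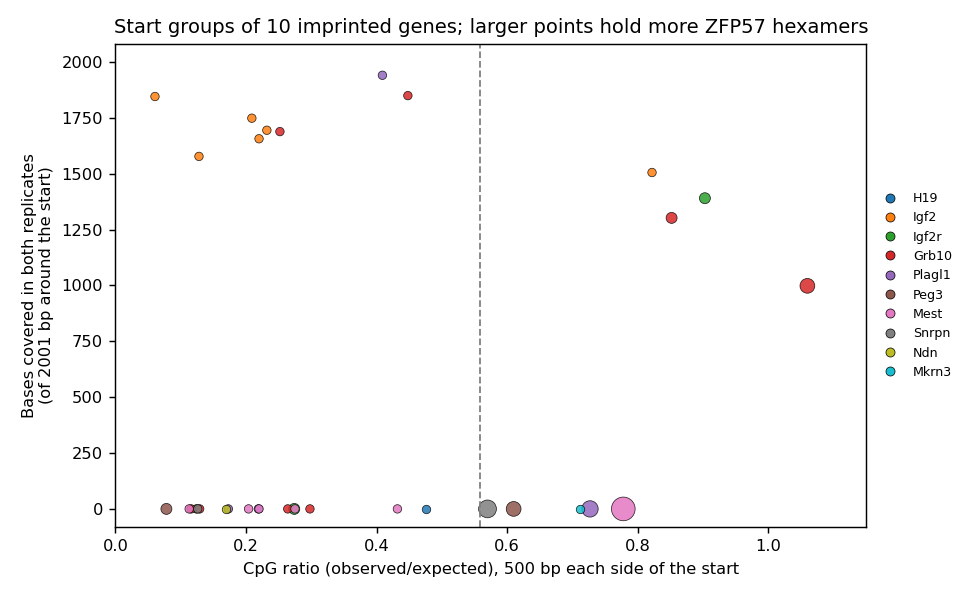
Bases covered in both replicates (of 2001 bp) against the CpG ratio of the 34 start groups of the 10 genes, coloured by gene, with larger points for more ZFP57 hexamers and a dashed line at the median ratio of protein-coding gene starts (0.558). The covered groups lie at both low and high ratios, and the largest points, those of Mest, Snrpn and the inner start of Plagl1, lie at 0 bp.

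The other genes of the same imprinted clusters, 14 in a list made for this comparison, gave 5 calls at the gene start (35.7%): Airn, Slc22a3, Klf14, Magel2 and Peg12. Zim1 had a peak in replicate 1 only, and Slc22a2, Ddc, Usp29, Zfp264, Copg2, Ube3a, Snurf and Ins2 had none at the outermost start, though Ddc and Ins2 were called at another transcript start. In a list of 35 further imprinted genes 14 were called, 3 had a peak in 1 replicate and 18 had none. Among the called were Peg10 and Sgce, which share a promoter region, Rasgrf1, Kcnk9 and Zdbf2. The Kcnq1-Cdkn1c and Dlk1-Dio3 regions gave 6 of the 14, namely Cdkn1c, Kcnq1, Phlda2, Ascl2, Dlk1 and Dio3. Over all imprinted genes of the lists, 22 of 54 (40.7%) were called, beside the 26.1% of protein-coding genes. Genes of a cluster are neighbours and not independent, and the lists were not tested against that share.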

How the data were processed

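H3K27me3 ChIP-seq peak lists of 2 biological replicates were read as the authors deposited them. Per the file headers, the lists on mm10 come from 2 processing runs, and the pseudoreplicated list of each replicate from the second run was used for every main value. Each peak carries a deposited signal value, used only to describe and rank peaks within its own list, and a deposited −log10 q. Not given in the sources used here are the aligner, the caller, its thresholds and the depth. Whether a control entered the calls is not stated. A single list on mm9 was not used.

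Gene models were those of GENCODE mouse release 21 (GRCm38), over 19 autosomes and X, and sequence from RefSeq GRCm38 patch 6. No peak (0) lay past a chromosome end. A call needs an overlap of at least 1 bp in each replicate. The 18 entries of the RefSeq promoter table for the 10 genes were equal to that sequence in 18 cases. The CpG ratio was taken over 500 bp on each side of a start.

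The members and gene lists were chosen with earlier results of these data known. Named are all 10 members, listed genes with their calls, cluster partners and check genes with values, the nearest protein-coding neighbours and genes that start in a covered stretch. Nothing was tested between groups, since there is 1 group. Coverage, bases in common and window calls were checked on simulated intervals. The motif and CpG counts were not part of that check. Alternatives were other lists, windows, thresholds and joining distances, each replicate left out and, added after seeing the data, RefSeq starts. Analyses used Python 3.11.15, NumPy 2.4.6 and Matplotlib 3.10.9.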

Additional observations from a re-analysis of the deposited data

How the results depend on the processing

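Of 52 counts under alternative settings, 43 stayed within 1.5 times of the count reported. For a peak within 5 kb of any transcript start, 8 of the 10 genes were called in place of 5 with the relaxed lists, with either replicated list and with the list of both libraries together, each of them gaining H19, Mest and Mkrn3, while 46.1% to 49.0% of protein-coding genes were called. Only 2, Igf2 and Grb10, were called where 50% of that window had to be covered (8.60% of protein-coding genes). For a peak in the gene body, 8 were called with the relaxed lists (H19, Peg3 and Snrpn gained, 43.7% of protein-coding genes) and 8 with the first run's replicated list (H19, Peg3 and Mkrn3 gained, 42.3%), and 1, Igf2, where 50% had to be covered (4.94%). Of the 54 listed imprinted genes 12 were called with 50% of the window covered (3036 of 21755 protein-coding genes). Leaving out either replicate gave 5 to 6 calls within 1 kb of the gene start (27.8% to 30.2% of protein-coding genes) and of any transcript start (31.4% to 34.0%), 5 to 7 within 5 kb (38.8% to 43.3%), 5 to 6 in the body (35.2% to 39.0%) and 24 to 25 in the lists. Without replicate 1, H19 was gained in all 4 windows and Mkrn3 within 5 kb. Within 1 kb of the gene start, H19 was also gained with the relaxed lists, either replicated list and the list of both libraries together. Mkrn3 was gained there with the first run's replicated list only. These lists called 33.2% to 34.2% of protein-coding genes. Ndn was lost within 1 kb of its GENCODE start where a base in common was needed, and Plagl1 was lost with RefSeq starts. Covered bases within 5 kb moved by more than the spread of the replicates in 27 of 50 comparisons. That spread is the SD of 2 values, and it was 0 for Peg3, Mest and Snrpn. The reported value counts bases in common, while a replicated or joint list counts all its bases. The 27 is thus not a measure of how stable the coverage is. Joining within 1 kb shortened the stretches of Igf2 to 18.3 kb, of Igf2r to 3.68 kb and of Grb10 to 19.7 kb. The cause of these shifts was not tested. No paired analysis was possible because the series has 1 group. Depth is unknown, and replicate 2 has more peaks than replicate 1.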

Other observations

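Imprinted genes that do not rest on DNA methylation from the egg, but on H3K27me3 that the egg places on the maternal copy, form a separate class known as non-canonical imprinting. Of 5 such genes looked up, 3 were called within 1 kb of the gene start in both replicates: Sfmbt2, which encodes a Polycomb-related protein of the placenta, Gab1, a signalling adaptor, and Smoc1, a secreted calcium-binding protein. Slc38a4, an amino acid transporter, had a peak in replicate 1 only, and Jade1 had none. The Smoc1 call rested on 119 bp covered in both replicates. The lists do not separate the parental copies, so these calls do not show which copy carries the mark. These 5 genes are too few to set against the 26.1% of protein-coding genes.

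Of 12 genes for proteins that set or keep imprints, 2 were called (16.7%), beside 26.1% of protein-coding genes. With 12 genes, whether the shares differ was not tested. The 2 were Dnmt3a, a DNA methyltransferase that sets methylation in germ cells, and Ctcfl, a germline relative of CTCF. The other 10, among them Zfp57, Trim28, Dnmt1, Uhrf1, Dppa3 and Ctcf, had no peak within 1 kb of the gene start in either replicate.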
